A study of Mus musculus with 10 samples.

Results

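Homeobox genes encode transcription factors that set body position and organ identity in the embryo, and most of them are kept off in mature lymphocytes. Polycomb complexes, which place H3K27me3 and compact chromatin, hold many of these loci closed outside the tissues that use them. Hox genes lie in clusters and pattern the body axis, while the Lhx, Nkx, Dlx, sine oculis (such as Six3 and Six6), Irx, Msx, Pou and En families act in brain, eye, heart, limb, skin and other organs. Here the open chromatin sites nearest to such genes were followed in mouse Th17 cells, a helper T cell type named for interleukin-17. A site was taken when its nearest protein-coding gene body, within 50 kb on GRCm38, belonged to one of these families by symbol, and 44 of the 39657 sites in the deposited table met this rule. They lie by 28 of the 93 genes that the rule covers. The table holds no RNA values, so whether these genes are silent in these cells was not checked, and nearness to a gene does not show that a site controls it.

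The cells were grown for 3 days from naive CD4+ T cells of spleen and lymph nodes under Th17 conditions. KO cells came from PDHfl/fl CD4 Cre+ mice, which lose pyruvate dehydrogenase, the mitochondrial enzyme that turns pyruvate into acetyl-CoA, where the T cell Cre is active. WT cells came from PDHfl/fl mice without Cre, so the floxed allele was common to every group and only KO cells carried the Cre transgene. The groups were KO untreated (3 libraries), WT untreated (3), KO with 10 mM sodium acetate, another source of acetyl-CoA, present throughout the culture (2), and WT with the same acetate (2). The assay was OMNI-ATAC, in which a transposase cuts open chromatin. Values are signal as the authors deposited it, the reads of a site over a factor that is the same for all sites of a library. Inferred from the steps between values, libraries held 3500172 to 13356560 reads in sites, and their median site 57 to 233. The labels do not say whether replicates were separate animals, so p-values measure only the spread between these libraries, which may be technical. The numbering of the sites marks them as differential, and they are treated as picked by the authors from these very libraries, so calls for untreated KO against WT are not independent evidence of a difference. In a bulk assay, a site open in more cells and a site more open per cell cannot be told apart.

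Homeobox genes were thinly represented in the table. Of the 93 genes 30.1% had a site, against 55.5% of 21896 protein-coding genes, and 9.68% had a site within 1 kb of either gene end, against 36.6% of all genes. The 44 sites held 7 at Hox genes (among them Hoxa9, Hoxa10, Hoxa13, Hoxb9 and Hoxc4), and 0 of 9 Hoxd genes had one. There were 11 at Dlx genes, 8 at Lhx genes, 7 at Nkx genes, 5 at sine oculis genes (among them Six3, Six4, Six5 and Six6), 2 each at Irx5 and En1, and 1 each at Msx2 and Pou3f1. Of the 44 sites 25 (56.8%) lay outside gene bodies and over 1 kb from a gene end. Of the 36443 sites in the table with a gene within 50 kb, 9818 did so. Another 10 of the 44 were at a gene end and 9 elsewhere in a gene body. Gene ends were the outer ends of the annotated gene, so a site over an inner start counts as gene body. Their signal was low: the mean over the 10 libraries had a median of 79.9 at the homeobox sites, with a range of 29.3 to 443, and of 146 at all sites. At gene ends the medians were 83 and 311. No filter on low values was applied. At the edge of the 50 kb limit, the Hoxc4 site (49.9 kb away) was in and a site 52.2 kb from Dlx2 was out. Untreated signal at that Dlx2 site was 188, 202 and 260 in KO libraries and 406, 318 and 350 in WT libraries.

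Only 4 of the 70 rule genes with a RefSeq promoter window, the 250 bases before to 50 after a transcription start, had a site inside it (5.71%, against 25.6% of 27025 genes). Their upstream sequences are shown because these are the starts where the open site itself can be read; the capitals mark the bases inside the ATAC site. They were taken from RefSeq for GRCm38.p6, 250 bases upstream of the start, 5′ to 3′ on the strand of the gene. Six3 is at chr17:85620584-85620833 (plus strand), Six4, by the outer of its starts, at chr12:73113426-73113675 (minus), Lhx2 at chr2:38351058-38351307 (plus) and Dlx2 at chr2:71546755-71547004 (minus).
Six3: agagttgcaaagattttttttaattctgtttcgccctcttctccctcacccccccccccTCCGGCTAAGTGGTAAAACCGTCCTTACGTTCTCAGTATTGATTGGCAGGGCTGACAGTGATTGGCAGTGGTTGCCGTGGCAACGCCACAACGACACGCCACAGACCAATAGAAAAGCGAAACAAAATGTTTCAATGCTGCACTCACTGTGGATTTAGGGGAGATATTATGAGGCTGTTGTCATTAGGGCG
Six4: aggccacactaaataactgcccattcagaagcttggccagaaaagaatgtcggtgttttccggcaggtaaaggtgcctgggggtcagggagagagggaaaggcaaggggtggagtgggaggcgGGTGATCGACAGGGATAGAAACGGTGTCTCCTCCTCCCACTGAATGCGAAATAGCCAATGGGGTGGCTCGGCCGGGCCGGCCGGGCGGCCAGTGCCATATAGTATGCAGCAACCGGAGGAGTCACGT
Lhx2: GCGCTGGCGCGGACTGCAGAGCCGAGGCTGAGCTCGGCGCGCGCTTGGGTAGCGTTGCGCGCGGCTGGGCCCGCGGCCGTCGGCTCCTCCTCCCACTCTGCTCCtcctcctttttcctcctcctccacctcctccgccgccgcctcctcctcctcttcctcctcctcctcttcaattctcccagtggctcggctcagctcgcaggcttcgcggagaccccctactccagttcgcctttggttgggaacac
Dlx2: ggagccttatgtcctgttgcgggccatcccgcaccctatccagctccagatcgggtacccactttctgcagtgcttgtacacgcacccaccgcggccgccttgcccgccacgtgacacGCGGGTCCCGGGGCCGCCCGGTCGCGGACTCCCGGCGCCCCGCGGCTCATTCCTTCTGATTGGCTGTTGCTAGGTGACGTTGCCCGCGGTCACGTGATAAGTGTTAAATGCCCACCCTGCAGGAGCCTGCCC
The Six3 stretch, the only 1 of the 4 whose site was higher in untreated KO, had a GC content of 48.8% and 10 CpG dinucleotides. GC content was 58.8% with 13 CpG at Six4, 68.4% with 24 at Lhx2 and 66.4% with 24 at Dlx2. Over all 32851 windows the medians were 52.4% and 6, and over the 78 windows of rule genes 61.6% and 15. On both strands, the homeodomain core TAATTA and the AP-1 motif TGANTCA had no match in these 4 stretches, and the GC box GGGCGG had 1 match each in Six4 and Dlx2. TAATTA was in 6 of 78 rule windows (7.69%, against 4.84% of all windows), TGANTCA also in 6 (7.69%, against 6.75%), and GGGCGG in 41 (52.6%, against 32.7%).

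Untreated KO cells differed from WT cells in opposite directions at these sites. Signal was higher in KO at 15 of 44 sites (34.1%), where 9.07% of all sites were higher, and lower at 29 (65.9%), where 89.6% of all sites were lower (limma on log2(signal + 1), 4 group means, Benjamini-Hochberg adjusted p under 0.05 over all sites). The 15 higher sites lie by 12 genes, among them Six6, Six3, Lhx2 (2 sites), Msx2, Pou3f1, Irx5, En1 (2), Hoxa13, Hoxb9 and Hoxc4. All 15 were called higher under every scaling tried, with a median log2 difference of 1.13 as deposited and 2.04 with cyclic loess. The 29 lower sites had a median of -0.88, close to the -0.84 of all sites, and only 3 of them, all at Dlx3, were also called lower with median-of-ratios factors or total signal. Those scalings moved the median of all sites from -0.84 to -0.04 and -0.13, and cyclic loess to 0.00, so differences are best read against the deposited median. With cyclic loess the split was 15 higher and 1 lower, beside 3708 and 956 of the 39657 sites. The 5 libraries whose columns start with ATAC1 (3 KO, 2 WT) gave 15 higher and 29 lower, beside 3516 and 34736 of all sites.

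**Figure D1:**
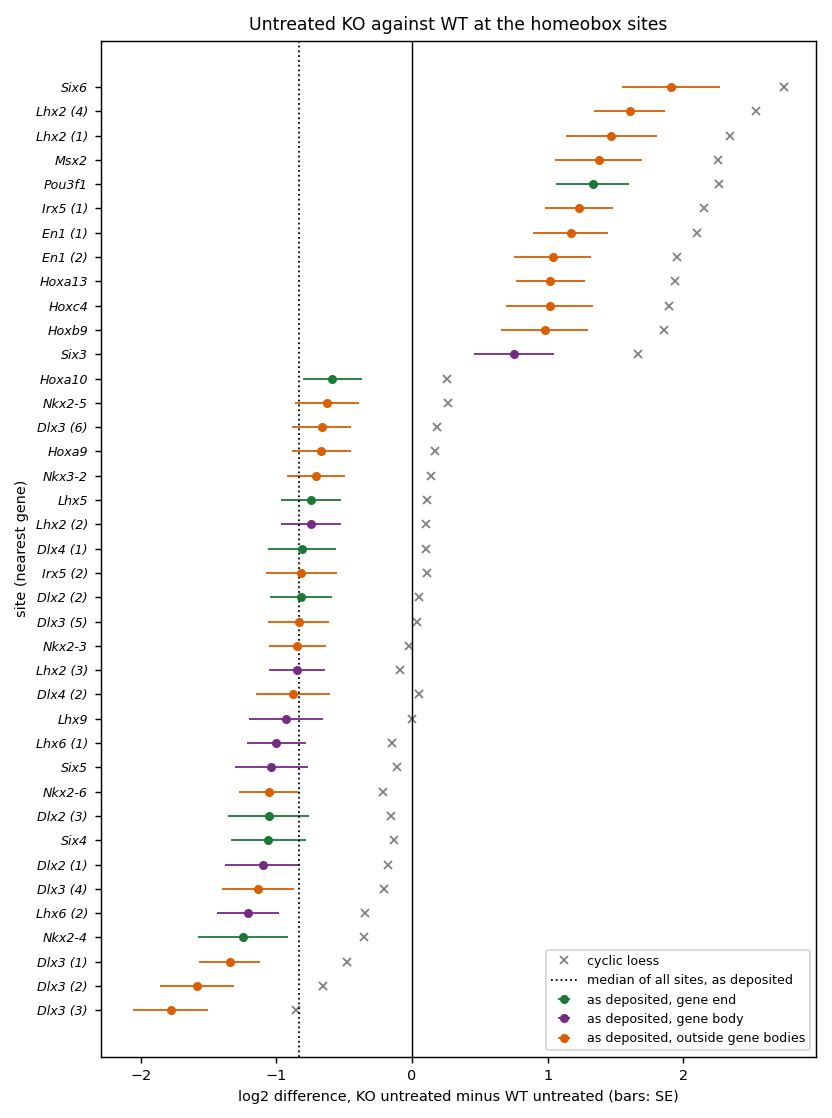
Log2 difference of KO untreated minus WT untreated at 39 of the 44 sites (points, coloured by position, bars are SE; grey crosses, the same with cyclic loess; dotted line, median of all sites at -0.84). The 12 sites drawn to the right of 0 stay there with cyclic loess, while most of the 27 to the left move to about 0 and 12 of them cross it.

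Groups did not overlap at 13 higher sites, where 8.61% of all sites were higher without overlap, and at 25 lower sites, where the background was 80.9%. By position, 12 of the 25 sites outside gene bodies were higher, against 9.32% of all such sites. At gene ends it was 2 of 10 (Pou3f1 among them), against 1.5%. In gene bodies it was 1 of 9, against 10.8%, and that site lies over an inner start, of Six3. Weak sites were more often higher throughout the table: in the lowest quintile of mean signal 8 of 10 homeobox sites were higher, against 26.5% of all sites. In the next quintile 6 of 17 were higher (10.2% of all sites), in the middle one 1 of 12 (6.03%), in the next 0 of 3 (2.26%) and in the top one 0 of 2 (0.403%). A share of the signal is not altered by a factor per library, and the 44 sites held 0.0622 ± 0.00333% in KO untreated and 0.0520 ± 0.00370% in WT untreated libraries of the total over all sites (SD, n = 3 each). The groups did not overlap (two-sided exact permutation p = 0.1, the smallest that 20 splits allow). The share of signal on mitochondrial DNA also differed between the untreated genotypes. It was 1.18 to 2.01% in KO untreated libraries and 0.207 to 0.658% in WT untreated libraries. With acetate it was 0.228 and 0.3345% in KO and 0.201 and 0.463% in WT libraries. Its part in the result was not tested. Without the mitochondrial sites the share at the homeobox sites was 0.0633% in KO untreated and 0.0522% in WT untreated libraries.

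Among the sine oculis genes, which act in eye, forebrain and other organs, the largest rise of the 44 was at Six6, an eye and pituitary factor. Its site (chr12:72958018-72958218, 13.1 kb from the gene) had 40.0, 42.0 and 47.3 in KO untreated libraries and 11.2, 9.04 and 12.2 in WT untreated libraries. Every KO value was above every WT value, with a log2 difference of 1.91 ± 0.36 (SE; adjusted p = 4.19e-06), and the WT level was the lowest of any homeobox site. At Six3, a forebrain and eye factor, the site over the start had 57.0, 54.2 and 49.7 in KO and 21.2, 26.1 and 55.3 in WT (0.75 ± 0.30, adjusted p = 0.0128). The groups overlapped there, because 1 WT library, WT untreated 4, lay in the KO range. The Six3 rise was lost without KO untreated 1, WT untreated 1 or WT untreated 2. Six4 and Six5 were lower as deposited, by -1.06 ± 0.28 and -1.04 ± 0.27, and with cyclic loess by -0.13 and -0.11, neither called. The Six4 site also overlaps Mnat1, a subunit gene of the CDK-activating kinase, so it is shared between the genes.

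The LIM-homeobox gene Lhx2, needed in forebrain, eye and hair follicle, showed both directions within 75.3 kb. Its outermost sites were higher in KO. The one 40.5 kb from the gene body (chr2:38410282-38410482) had 113, 106 and 158 in KO and 33.7, 40.2 and 47.5 in WT (1.6 ± 0.26, adjusted p = 1.57e-07). The one 3.87 kb from the other end (chr2:38335205-38335405) had 59.8, 57.0 and 88.7 in KO and 26.2, 25.1 and 19.9 in WT (1.47 ± 0.34, adjusted p = 7.55e-05). The 2 sites inside the gene body were the opposite. The one whose bases stand in capitals above, the strongest of the 44 by mean signal, had 242, 270 and 255 in KO and 431, 324 and 706 in WT (-0.85 ± 0.21, adjusted p = 0.000193), with -0.09 under cyclic loess. The other had -0.75 ± 0.22, and 0.10 with cyclic loess. No rise was called at the other Lhx genes: Lhx6, an interneuron factor, had -1.21 ± 0.23 and -1.0 ± 0.22, Lhx9, a gonad factor, -0.93 ± 0.27, and Lhx5, a forebrain factor, -0.75 ± 0.22. With cyclic loess these 4 were between -0.35 and 0.11 and none was called.

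**Figure D2:**
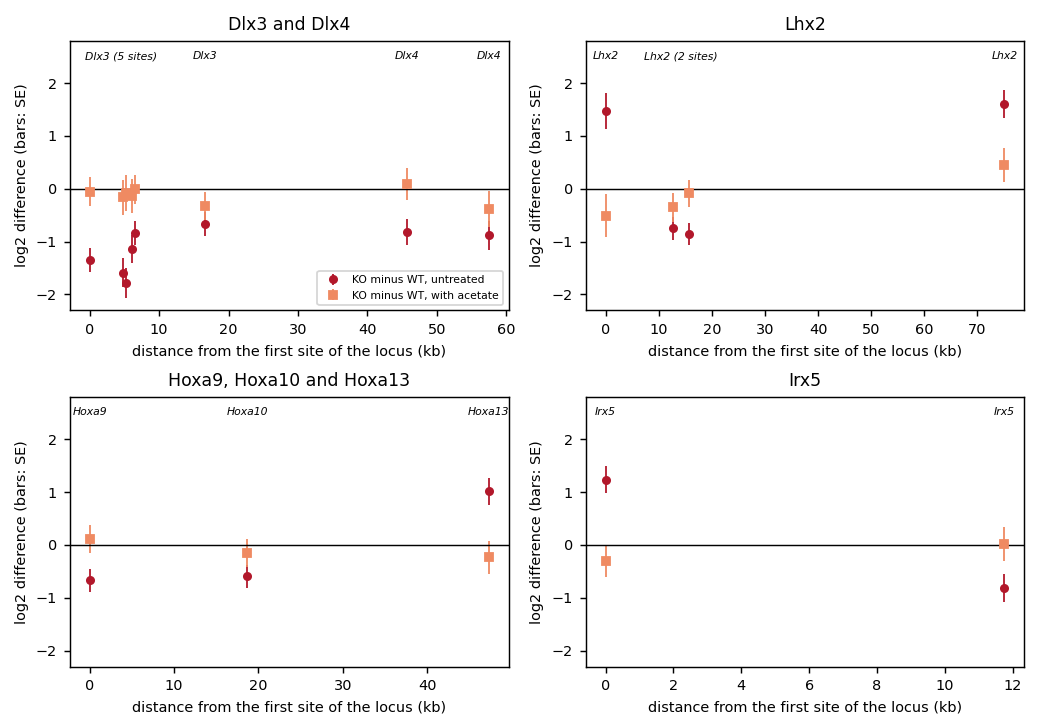
Log2 difference of KO minus WT (bars are SE), untreated (circles) and with acetate (squares), along 4 homeobox loci against distance in kb from the first site of the locus. At Lhx2, Irx5 and in the panel of Hoxa9, Hoxa10 and Hoxa13 higher and lower sites lie in the same locus, the lower ones near the -0.84 of all sites; at Dlx3 and Dlx4 all 8 were lower as deposited, of which 3 were still lower with total signal or median-of-ratios factors.

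Of the 7 Hox sites, 3 were higher in KO and 4 lower as deposited. The lower ones include Hoxa9 and Hoxa10, both active in blood progenitors, and these moved with the table: they had -0.67 ± 0.22 and -0.59 ± 0.22 as deposited, and 0.13 and 0.21 with median-of-ratios factors. At Hoxa10 the values were 124, 142 and 169 in KO and 242, 185 and 229 in WT, without overlap. The Hoxa10 call was lost without KO untreated 1. Beyond the end of the cluster the direction changed. The site 8.16 kb from Hoxa13, a digit and genital patterning gene, had 77.9, 110 and 135 in KO and 49.9, 46.2 and 58.6 in WT (chr6:52269038-52269238; 1.02 ± 0.26, adjusted p = 0.000238). The next site outward belongs to Evx1, a homeobox gene beside the cluster that the rule does not cover. It had 70.7, 60.7 and 88.7 in KO and 27.5, 25.1 and 31.0 in WT (chr6:52292478-52292678; 1.35 ± 0.32, adjusted p = 0.000122). The site 6.04 kb from Hoxb9, a thoracic patterning gene, had 51.5, 50.4 and 62.7 in KO and 27.5, 22.1 and 33.2 in WT (chr11:96265093-96265293; 0.98 ± 0.32, adjusted p = 0.00328). The Hoxc4 site at the distance limit had 31.3, 45.8 and 61.5 in KO and 35.0, 15.1 and 18.8 in WT (1.01 ± 0.32, adjusted p = 0.0026). Its groups overlapped, by the WT untreated 1 library.

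Rises also stood at genes of other families. At En1, which maintains the midbrain-hindbrain boundary, both sites, 4.89 kb apart from end to end, were higher. The site at chr1:120588703-120588903 had 71.8, 66.3 and 88.7 in KO and 22.5, 26.1 and 59.7 in WT (1.17 ± 0.27, adjusted p = 0.000117). The one at chr1:120593390-120593590 had 55.9, 61.6 and 69.8 in KO and 27.5, 28.1 and 34.3 in WT (1.04 ± 0.28, adjusted p = 0.000592). The high WT value at the first is the only WT untreated library with the ATAC2 prefix, and within ATAC1 the difference was 1.59. Msx2, a skull and limb gene, had 49.9, 55.1 and 53.2 in KO and 17.5, 15.1 and 28.7 in WT at a site 38.7 kb away (chr13:53511439-53511639; 1.38 ± 0.32, adjusted p = 0.000104). Pou3f1, which times Schwann cell myelination, had 81.7, 121 and 123 in KO and 53.7, 51.2 and 26.5 in WT at its gene end (chr4:124661285-124661485; 1.33 ± 0.27, adjusted p = 1.1e-05). All these KO values lay above all WT values of the same site.

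Irx5, a heart and retina gene, had sites on either side that went apart. The one 4.84 kb away (chr8:92352751-92352951) had 165, 150 and 232 in KO and 84.9, 80.4 and 63.0 in WT (1.23 ± 0.25, adjusted p = 1.36e-05). The other, 3.05 kb away, had 43.9, 36.4 and 69.8 in KO and 112, 66.3 and 84.0 in WT (-0.82 ± 0.26), and 0.11 with cyclic loess. Of the 7 Nkx sites 5 were lower as deposited, and none of these was called with cyclic loess. The differences as deposited were -1.05 ± 0.22 at Nkx2-6 (a pharyngeal gene), -1.25 ± 0.33 at Nkx2-4, -0.85 ± 0.21 at Nkx2-3 (a spleen and gut gene), -0.71 ± 0.22 at Nkx3-2 (a skeletal gene) and -0.63 ± 0.24 at Nkx2-5 (a heart gene). The Nkx2-5 call was lost without KO untreated 1 or WT untreated 1.

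No Dlx site was higher: all 11 were lower as deposited, with a median of -1.06. Dlx genes act in forebrain interneurons, jaw, skin and teeth. Dlx3, a skin, tooth and placenta gene, had 6 of them, all outside the gene body over 16.8 kb (chr11:95100487-95117285). The site at chr11:95105724-95105924 had 25.2, 27.1 and 17.7 in KO and 106, 83.4 and 60.8 in WT (-1.78 ± 0.28, adjusted p = 5.61e-08), the largest fall of the 44. Its neighbour at chr11:95105295-95105495 had 32.9, 18.7 and 22.5 in KO and 73.7, 69.3 and 79.6 in WT (-1.59 ± 0.27, adjusted p = 4.84e-07). The first site of the locus, at chr11:95100487-95100687, had 51.5, 66.3 and 82.8 in KO and 200, 170 and 140 in WT (-1.34 ± 0.22, adjusted p = 3.03e-07). These 3 were lower under median-of-ratios factors and total signal too, and the first named also with cyclic loess (-0.86). The other Dlx3 sites had -1.14 ± 0.27, -0.84 ± 0.23 and -0.67 ± 0.22 as deposited, and -0.20, 0.03 and 0.18 with cyclic loess. Sites at Dlx2, an interneuron gene, had -1.10 ± 0.28, -0.82 ± 0.23 and -1.06 ± 0.30, and those at Dlx4 -0.88 ± 0.27 and -0.81 ± 0.25. With cyclic loess these 5 were between -0.18 and 0.10 and none was called.

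**Figure D3:**
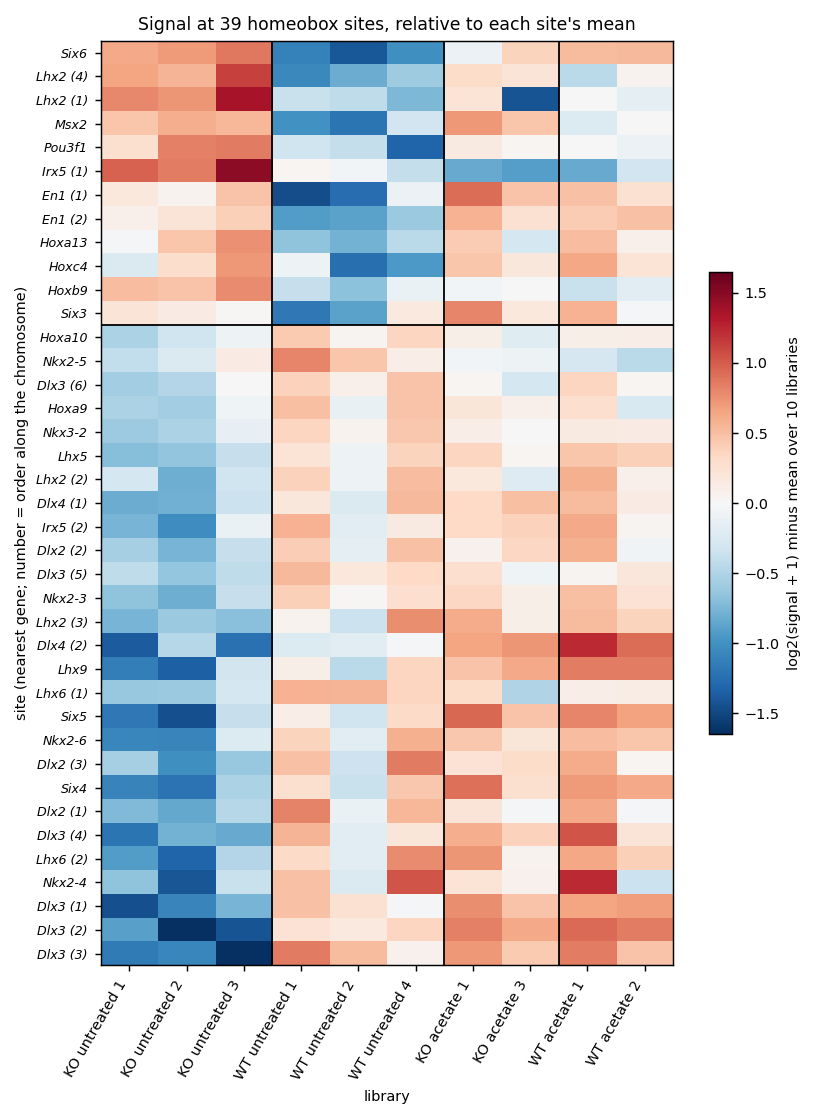
Log2(signal + 1) of 39 of the 44 sites (rows, by nearest gene, a number giving the order along the chromosome) in the 10 libraries (columns, 4 groups), minus the mean of each site. The 12 sites above the horizontal line are mostly red in KO untreated and mostly blue in WT untreated. The 27 below it are mostly the reverse as deposited, though the outer Dlx4 site is blue in both. The acetate columns of KO and WT look alike.

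With acetate in both genotypes, no homeobox site differed between KO and WT. By limma (adjusted p under 0.05) 0 of the 44 sites were higher, against 0.0227% of all sites, and 0 were lower, against 0%. An unadjusted p under 0.05 was found at 0 of the 44, against 2.3% of all sites, and the lowest of the 44 was 0.078. The median log2 difference was -0.09, against -0.15 over all sites, and the range -0.51 to 0.70. Of the 15 sites higher in untreated KO, 8 lay above 0 and their median was 0.02; of the 29 lower ones 25 lay below 0, with a median of -0.11. This comparison shares no library with the untreated one, and with 2 libraries a group it resolves less: the SE was 0.44 at Six6 and 0.34 at the Dlx3 site with the largest fall, against 0.36 and 0.28 untreated. Six6 had 23.9 and 33.2 in KO acetate and 36.9 and 37.2 in WT acetate libraries (-0.38 ± 0.44, adjusted p = 0.993). Lhx2, at its far site, had 88.7 and 82.96 in KO acetate and 52.3 and 74.4 in WT acetate libraries (0.45 ± 0.32), and the Msx2 site 59.7 and 49.8 against 30.8 and 35.8 (0.70 ± 0.39, the largest difference of the 44). KO values were above WT values at both, without a call. Across the 44 sites the untreated and the acetate genotype differences were related by Pearson's r = 0.315 and Spearman's rho = 0.196, given as a description, since the sites share libraries and their factors. The share of signal at the 44 sites was 0.0637 ± 0.00335% in KO acetate and 0.0606 ± 0.00026% in WT acetate libraries (n = 2 each; exact permutation p = 0.333, the smallest that 6 splits allow).

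**Figure D4:**
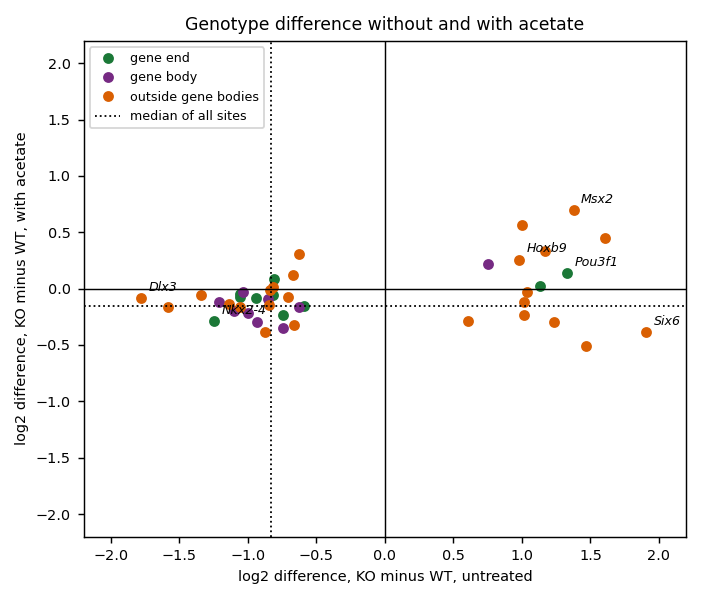
Log2 difference of KO minus WT with acetate (vertical) against untreated (horizontal) for the 44 sites, coloured by position; dotted lines are the medians of all sites, -0.15 and -0.84. Untreated differences run from -1.78 to 1.91 and acetate differences from -0.51 to 0.70.

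The test of the difference itself, the genotype by acetate interaction, called 12 of the 44 sites. At 5 the KO minus WT difference was higher with acetate, where 19.5% of all sites were higher (3 at Dlx3, 1 each at Nkx2-6 and Lhx6), and at 7 it was lower, where 3.61% were lower (among them Six6, 2 at Lhx2, Irx5, Hoxa13 and Pou3f1). The 5 were not called under any of the 3 other scalings, and the count of lower sites was then 10 or 11. Over all 39657 sites the interaction then had 55 to 111 higher and 2179 to 2919 lower, against 7728 and 1431 as deposited. At Six6 the interaction was -2.29 ± 0.57 (adjusted p = 0.00766).

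Acetate-treated cells were also set against their untreated counterparts. In KO cells 22 of the 44 sites were higher with acetate and 3 lower, shares near those of the whole table (54.6% and 5.94% of all sites). The 3 included Irx5, with 46.0 and 43.7 in KO acetate and 165, 150 and 232 in KO untreated libraries (-1.97 ± 0.28, adjusted p = 2.31e-09), and the near upstream Lhx2 site (-1.56 ± 0.37, adjusted p = 0.000262). The upstream Lhx2 site had 40.1 and 12.1 in KO acetate, which lie far apart. Of the 22 higher sites 10 were Dlx sites, led by Dlx3 with 112 and 96.5 in KO acetate and 32.9, 18.7 and 22.5 in KO untreated libraries (2.07 ± 0.30, adjusted p = 5.54e-09). Without KO acetate 1 the higher sites numbered 14, and without KO acetate 3 only Irx5 was lower. Over all sites 11026 were higher without KO acetate 1, and 1581 were lower without KO acetate 3. The split turned with the scaling, at these sites and over the whole table. With cyclic loess 6 of the 44 were higher and 10 lower, beside 4567 and 6625 of the 39657 sites. All acetate libraries carry the ATAC2 column prefix and all KO untreated libraries ATAC1, so acetate and prefix cannot be told apart here.

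In WT cells 7 of the 44 sites were higher with acetate (2.91% of all sites) and 1 was lower (3.02% of all sites). The 7 included Six6, En1 at both sites, Dlx4, Hoxc4 and Hoxa13. Six6 had 36.9 and 37.2 in WT acetate and 11.2, 9.04 and 12.2 in WT untreated libraries (1.70 ± 0.40, adjusted p = 0.00313). The first En1 site had 89.2 and 75.8 in WT acetate and 22.5, 26.1 and 59.7 in WT untreated libraries (1.30 ± 0.31, adjusted p = 0.00302). The outer Dlx4 site, which was not higher in untreated KO, had 142 and 114 in WT acetate and 51.2, 52.2 and 58.6 in WT untreated libraries (1.22 ± 0.31, adjusted p = 0.00564). Both WT acetate values were above all WT untreated values at these 3 sites. Hoxc4 had 1.19 ± 0.36 and Hoxa13 0.92 ± 0.29, and Nkx2-5 was the 1 lower site (-0.82 ± 0.26, adjusted p = 0.0389). The 59.7 at the first En1 site is the only WT untreated value there with the ATAC2 prefix. Within ATAC2 the difference was 0.46 at that site, 1.53 at Six6 and 1.10 at the outer Dlx4 site. The calls rest on few libraries: 1 site was higher without WT acetate 1 and 2 without WT acetate 2. The Nkx2-5 call was lost without either of these, WT untreated 1 or 2, or KO untreated 1 or 2. Over all sites 132 were higher without WT acetate 1 and 335 without WT acetate 2, against 1155 with every library. Within ATAC2, where 1 WT untreated library remains and is assumed to vary like the other groups, 4 of the 7 kept their call, Pou3f1 was called in addition, and 0 were lower.

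KO cells with acetate set against untreated WT cells had 8 sites higher (2.09% of all sites) and 0 lower (5.74% of all sites). By limma 15 of the 44 had an unadjusted p under 0.05, as had 21.4% of all sites. The 8 included En1 (1.64 ± 0.31 and 1.22 ± 0.32), Msx2 (1.42 ± 0.36), Six6 (1.31 ± 0.40), Six3 (1.13 ± 0.33), the far Lhx2 site (1.08 ± 0.29) and Hoxc4 (1.08 ± 0.36). This comparison, the untreated genotype comparison and the WT acetate comparison share the 3 WT untreated libraries, whose low values enter all 3. Within ATAC2, with 1 WT untreated library, 0 of the 8 kept their call, and the 1 site called there was Pou3f1 (1.41, adjusted p = 0.0116), which was not called over all libraries. With 1 library left out, the count was 1 without KO acetate 1, 3 without KO acetate 3, 4 without WT untreated 1 or WT untreated 2, and 5 without KO untreated 1. Over all sites the higher counts were then 129, 330, 373, 713 and 618, in the order of these 5 libraries, against 827 with every library.

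**Figure D5:**
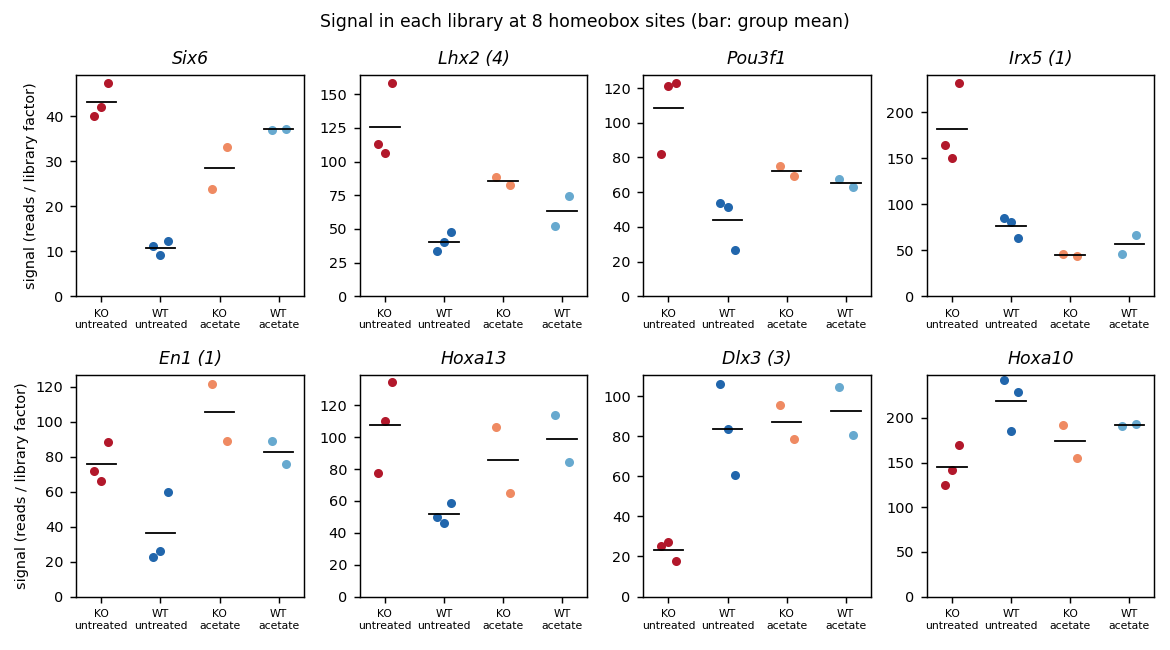
Signal (reads divided by the library factor) in each library at 8 homeobox sites, by group, with the group mean as a bar; each axis starts at 0. At Six6, the far Lhx2 site and Pou3f1 the 3 KO untreated points lie above all WT untreated points, at the lowest Dlx3 site and the Hoxa10 site below them as deposited, and the KO and WT acetate points lie close together at most of the 8.

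Over the 15 sites higher in untreated KO, the median of the group means was 68.5 in KO untreated, 34.2 in WT untreated, 71.3 in KO acetate and 61.1 in WT acetate. Over the 29 lower sites it was 82.1 in KO untreated, 163 in WT untreated, 139 in KO acetate and 139 in WT acetate. The sets were formed from the untreated values, which fixes the untreated order and in part where WT untreated stands beside the acetate groups, so these values are a description.

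Genes that work with or on homeobox genes mostly followed the table in untreated KO against WT. Of 15 sites at the TALE cofactors of Hox proteins (Pbx, Meis, Pknox and Tgif genes, 7 of 11 with a site), 1 was higher and 14 lower, with a median of -0.86. Of 101 sites at Polycomb genes 7 were higher and 93 lower (median -0.86), and 3 of the 7 were at Rybp, a subunit of Polycomb repressive complex. Of 25 at trithorax and H3K27 demethylase genes 3 were higher and 21 lower, and of 87 at homeobox genes used in T cells, such as Satb1, 7 were higher and 77 lower. With cyclic loess the higher calls were 1, 7, 4 and 7 and the lower calls 0, 2, 1 and 3 in these 4 lists. Among 56 other developmental homeobox and paired box genes outside the rule, 17 had a site. Of their 30 sites 2 were higher (Evx1 and Pax7, a muscle stem cell gene, at 1.61 ± 0.25) and 26 lower, with a median of -0.88. That is 6.67% of its sites higher, against 9.07% of all sites. With cyclic loess 4 of the 30 were higher and 0 lower, where 9.35% of all sites were higher.

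T cell markers were accessible in these libraries: all 9 (Cd3e, Cd4, Lck, Il17a and Il17f among them) had a site, 49 in all. In untreated KO 6 of the 49 sites were higher and 43 lower as deposited. All 6 were at Cd4, a helper T cell co-receptor, whose 8 sites summed to 3792, 3367 and 4797 in KO untreated and 1101, 867 and 1072 in WT untreated libraries. The Cd4 sums were 6897 and 5430 in KO acetate and 923 and 892 in WT acetate libraries. KO cells carry the CD4 Cre transgene, and its part in the Cd4 values was not tested. Of the 8 B cell markers 4 had a site, and the other 4, among them Cd79a and Ms4a1, had none in the table. Of those 19 sites 8 were higher in untreated KO, at Blk, Blnk, Pax5 and 1 of 11 at Ebf1, which is 42.1% against 9.07% of all sites, and 9 were lower. Summed signal was 149 to 252 in KO untreated and 51.2 to 78.5 in WT untreated libraries at Blk, a B cell kinase. It was 205 to 305 in KO and 95.1 to 125 in WT at Blnk, a B cell linker protein. At Pax5, which sets B cell identity, it was 188 to 265 in KO and 67.4 to 99.5 in WT. Groups did not overlap at these 3 genes. Ebf1, another B cell factor, had 775 to 1105 in KO and 1379 to 1753 in WT and carried most of the sum over the list, 1317 to 1927 in KO and 1652 to 1997 in WT. Of 6 myeloid sites (Cd14, Itgam and Spi1, 3 of 6 markers) 1 was higher and 5 lower, and the sums were 927 to 1230 in KO and 1639 to 1937 in WT. Of 7 CD8 T and NK cell sites, all at Klrb1c (1 of 5 markers), 0 were higher and 7 lower, and the sums were 1051 to 1243 in KO and 1566 to 2407 in WT. With cyclic loess the higher and lower calls were 6 and 2 for T cell sites, 9 and 0 for B cell sites, 1 and 1 for myeloid sites and 0 and 0 for CD8 T and NK cell sites. The part of other cell types in the homeobox result was not tested.

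Outside the rule, the genes whose sites followed the mean of the 15 higher sites most closely over the 10 libraries were Ptk2 (Pearson r = 0.984), Olfr175 (0.980), Myog (0.979), Bmx (0.977) and Dlgap3 (0.977). They were picked as the closest of all sites, so these values only describe them. Ptk2 encodes focal adhesion kinase, Olfr175 an odorant receptor, Myog a muscle transcription factor, Bmx a tyrosine kinase and Dlgap3 a synaptic scaffold.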

How the data were processed

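The authors' deposited table gives signal, that is reads over a factor of each library; how it was derived is not stated in the labels. Within 0.001 reads, 100% of the values in every library were whole multiples of 1 step. Per the submitters' processing notes, the build was GRCm38 and the tools included BWA 0.7.16a, Genrich, Picard 2.10.9 and DiffBind 3.6.1; their roles are not given. Read numbers are inferred from this step. A second check, which starts from the lowest values of each column, accepted whole reads in 5 of the 10 columns. A count test had been planned for raw counts; the values proved normalized and the reads were not accepted throughout, so log2(signal + 1) was analysed with limma 3.58.1 (trend, robust; R 4.3.3) in 1 model of 4 group means over all 10 libraries. Fold changes are on that scale and understate changes at weak sites. The Benjamini-Hochberg adjustment took in 39657 sites, with a threshold of 0.05. The model was tested on simulated data for untreated KO against WT over 39657 sites. It recovered 0 of 50 changes of 1.5-fold, 18 of 50 of 2-fold, 48 of 50 of 3-fold and 49 of 50 of 4-fold. Few simulated sites changed, their spread was assumed and the whole table did not shift. In the deposited values 98.7% of all sites had an unadjusted limma p under 0.05 in this comparison. The simulated rates therefore do not carry over to it.

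Columns named WT 4 and KO acetate 3 carry numbers that the sample titles lack and were placed by group. Column names start with ATAC1 (KO untreated 1, 2 and 3, WT untreated 1 and 2) or ATAC2 (the other 5); the labels do not explain the prefix. Nearest gene bodies came from RefSeq genes on GRCm38.p6 and promoter windows from RefSeq. Shares had two-sided exact permutation tests. Counts take in all 44 sites, but results of some single sites and genes are not reported here. The members, lists and tests were chosen with earlier results of these data known. Sites were named as the largest non-overlapping rises and falls of a comparison, the 10 strongest, all Hox genes, genes with 5 or more sites, and the 5 most alike outside the rule; the remaining member sites, Evx1, Pax7, Rybp and the marker genes were named after their values were seen. The alternatives were other scalings (median-of-ratios factors, total signal, cyclic loess), a pseudocount of 10, a mean signal of at least 20, each library left out, 1 column prefix only, a replicate block, and members within 10 kb or overlapping a gene body. Tables and figures used Python 3.11.15 with pandas 2.3.3, scipy 1.17.1, matplotlib 3.10.9 and numpy 2.4.6.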

Additional observations from a re-analysis of the deposited data

Results flagged for a closer look

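At 12 homeobox sites the KO minus WT difference itself differed with and without acetate (limma interaction, adjusted p under 0.05 over all sites). At Dlx3 the interaction was 1.29, 1.43 and 1.69 on the log2 scale at the 3 sites that fell most in untreated KO. At Nkx2-6 it was 0.89 and at Lhx6 1.09. At these 5 sites the deficit of untreated KO was smaller with acetate; none of the 5 was called under the other 3 scalings. The median interaction of all sites was 0.67 as deposited, 0.13 scaled to total signal and 0.03 by median-of-ratios factors.

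At the other 7 sites, not all of them named here, the KO excess of the untreated cells was smaller or turned with acetate. The interaction was -2.29 at Six6, -1.98 and -1.15 at the upstream and far Lhx2 sites, -1.54 at Irx5, -1.25 at Hoxa13 and -1.19 at Pou3f1. Every KO untreated library has the ATAC1 prefix and every acetate library ATAC2, so part of the contrast cannot be told apart from the prefix. The counts changed with single libraries, at these sites and over the whole table. Higher and lower calls numbered 0 and 1 without KO acetate 1, 2 and 4 without KO untreated 1, 2 and 3 without KO untreated 2, 12 and 4 without KO untreated 3, and 3 and 4 without WT untreated 1. They numbered 1 and 3 without WT acetate 2, and 19 and 7 without WT untreated 2. Lower calls numbered 4 without WT acetate 1 and 2 without KO acetate 3. Over all 39657 sites the counts were 7728 and 1431 with every library, and 126 and 375 without KO acetate 1. They were 701 and 620 without KO untreated 1, 1668 and 599 without KO untreated 2, and 11115 and 916 without KO untreated 3. Without WT untreated 1 they were 1326 and 727, without WT acetate 2 1173 and 522, and without WT untreated 2 16081 and 1803. Lower calls were 852 without WT acetate 1 and 565 without KO acetate 3.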

How the results depend on the processing

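In untreated KO, 15 members rose and 29 fell as deposited. Other scalings left 15 higher, and lower counts of 3 with median-of-ratios factors, 3 with total signal and 1 with cyclic loess. Over all 39657 sites these 3 gave 3817, 3718 and 3708 higher and 1323, 2276 and 956 lower. For acetate against untreated KO, higher counts were 9, 10 and 6 under the same 3, and lower counts 9, 9 and 10. Over all 39657 sites the higher counts were 5265, 6856 and 4567 there, and the lower counts 6323, 4991 and 6625. The interaction then had 0 higher in each, and 11 lower by cyclic loess and also by median-of-ratios factors. Over all 39657 sites the interaction had 79, 111 and 55 higher and 2600, 2179 and 2919 lower under the same 3. Of the 29 lower sites, these among others turned above 0 in untreated KO. With median-of-ratios factors the values were 0.13 at Dlx3, 0.17 at Nkx2-5, 0.052 at Lhx2, 0.0519 at Lhx5, 0.0906 at Nkx3-2, 0.13 at Hoxa9 and 0.21 at Hoxa10. With total signal they were 0.0453 at Dlx3, 0.0836 at Nkx2-5, 0.0025 at Nkx3-2, 0.0418 at Hoxa9 and 0.12 at Hoxa10. With cyclic loess they were 0.0485 and 0.10 at Dlx4, 0.0332 and 0.18 at Dlx3, 0.26 at Nkx2-5, 0.10 at Lhx2, 0.0492 at Dlx2, 0.14 at Nkx3-2, 0.11 at Lhx5 and Irx5, 0.17 at Hoxa9 and 0.26 at Hoxa10. The median of all sites moved as well, to -0.04 with median-of-ratios factors, -0.13 with total signal and -0.0005 with cyclic loess. Cyclic loess did not move every site by the same amount. The outer Dlx4 site went from -0.88 to 0.0485, and the strongest Lhx2 site from -0.85 to -0.09.

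Leaving out 1 library at a time gave 14 to 15 higher and 27 to 29 lower for untreated KO against WT, and 0 and 0 for the genotypes compared with acetate. In KO, acetate gave 14 to 24 higher and 1 to 3 lower, and in WT 1 to 10 higher and 0 to 1 lower. KO with acetate against untreated WT gave 1 to 11 and 0 to 1, and the interaction 0 to 19 and 1 to 9. Over all 39657 sites the higher counts ran from 3301 to 3598 for untreated KO against WT, and from 11026 to 23409 for acetate in KO. They ran from 132 to 1692 for acetate in WT and from 129 to 1396 for KO with acetate against untreated WT. For the interaction they ran from 126 to 16081. The difference in the share of signal at the sites ran from 0.00854 to 0.0123 percentage points untreated and from 0.000664 to 0.00541 with acetate. Where this left 1 library in a group, it was assumed to vary like the other groups. Within ATAC2, KO with acetate had 1 site above untreated WT, at Pou3f1, and 0 of the 8 called over all libraries kept their call, while acetate lowered 0 in WT. Within ATAC1 the 15 and 29 calls of untreated KO were kept. Pseudocount and signal filter moved no count by over 1.5 times.

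With the replicate block, on the numbered libraries, acetate against untreated KO had 1 lower, acetate in WT 12 higher, and the interaction 11 higher and 3 lower. Over all 39657 sites these counts were 1520 lower, 2630 higher, and 15816 higher and 955 lower. The same libraries without the block, an alternative chosen after seeing the data, gave 1 lower for acetate in KO and 3 lower for the interaction. Over all sites 1924 and 1030 were then lower. The labels do not say that numbers pair libraries, and their deviations correlated by 0.187, 0.0274 and 0.319 over the pairs of groups.

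Restricting members to within 10 kb left 9 higher in untreated KO, 14 higher with acetate in KO, 2 in WT, 2 for KO with acetate against untreated WT and 1 for the interaction. Restricting them to sites overlapping a gene body left 2 higher and 15 lower in untreated KO, 12 and 1 with acetate in KO, 0 and 0 in WT, 1 higher for KO with acetate against untreated WT, and 1 and 1 for the interaction, fewer members being counted. Counts over all sites were not made under these restrictions, so the member counts have no share to be read against. The planned count test on recovered reads was not run. Sites with few reads limit the smaller differences. Changes of 1.5-fold were not recovered in simulated data, but these had few changed sites and no shift of the whole table. That limit does not carry over to the deposited values.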
